A study of Gallus gallus with 58 samples.

Results

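Genes of glycolysis and of the response to low oxygen were followed in the blood of chicks (Gallus gallus) in their first days after hatching. The set was a list of 39 gene symbols. A member had to have a probe set of the array whose only platform symbol was that name, and the probe set with the highest mean stood for the gene. This gave 26 genes of the 11528 genes with a single symbol on the array, which holds 20804 probe sets. They were 12 glycolytic enzymes, 6 regulators and transporters of glycolysis, 3 genes of oxygen sensing and 5 further hypoxia targets. No probe set carried the symbol of HK2, PFKFB3, PGK1, PGAM1, ALDOA, ALDOC, PKM, PGM1, SLC2A3, EGLN1, P4HA2, DDIT4 or ERO1L alone, and these 13 listed genes are not analysed here as members.

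Each of 58 chicks gave 1 array. The study asked how blood changes after CpG-ODN 2007, a short synthetic DNA that chicken cells sense through the receptor TLR21, given by injection on the day of hatch. Blood was taken 3 h later (10 CpG chicks and 10 controls), on day 3 (D3, 8 and 8) or on day 6 (D6, 10 and 12), from different chicks at each time. What the controls received, the sex of the chicks and any array batch are not given in the labels used here. Values are log2 expression from RMA, a method that corrects background, equalises the arrays and summarises probes, so that a difference of 1 is a 2-fold difference.

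Glycolysis splits glucose into pyruvate in the cytosol, and lactate dehydrogenase turns pyruvate into lactate when glycolysis runs faster than the mitochondria take its product up. Hypoxia-inducible factors are transcription factors whose alpha subunits are marked for breakdown by prolyl hydroxylases while oxygen is present. In low oxygen, and in activated myeloid cells also in normal oxygen, the alpha subunits persist, and their known targets include most glycolytic enzymes, glucose and lactate carriers, VEGFA and collagen hydroxylases. Bird blood holds nucleated red cells and thrombocytes beside heterophils (the avian counterpart of neutrophils), monocytes and lymphocytes. In such a mixture fewer cells of a type and less RNA per cell cannot be told apart.

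Arrays resembled the others of their group, with a median correlation of 0.965 to 0.98 in 54 of them and 0.942 to 0.959 in the other 4 (CpG chick 20 at D3, CpG chick 31 at D6, control chick 74 at 3 h and control chick 86 at D3). Red cell markers, which should be high in whole bird blood, had a mean log2 level over 9 genes between 12.4 and 12.9 in every chick. Of the 26 members 8 had a mean under 6.26, which is the 40% quantile of all probe set means. These were PFKM, ENO2, PGM2, PFKFB4, PDK1, EGLN3, VEGFA and PLOD2. Whether these 8 were detected is not known, so that small differences in them say little.

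At 3 h no member passed the test between CpG and control chicks. LDHA, which encodes the A chain of lactate dehydrogenase, ranged from 10.3 to 10.9 with a median of 10.7 in CpG chicks, and from 10.6 to 11.3 with a median of 10.8 in controls. The groups overlapped, with 1 CpG chick below all controls. Over the 26 members limma called 0, 0 had an unadjusted p under 0.05, and array weights also gave 0, against 0% of all probe sets called. The log2 differences lay between -0.35 (PGM2, a phosphoglucomutase) and 0.26 (HIF1A, the alpha subunit of hypoxia-inducible factor 1). A second PGM2 probe set was at 0.37 ± 0.22 (adjusted p = 0.973), the opposite direction. The median of the 26 differences was 0.00, beside -0.01 over all probe sets.

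At D3 2 of the 26 members, LDHA and PLOD2, were higher in CpG chicks than in controls of the same day. LDHA ranged from 10.5 to 11.2 in CpG chicks (median 10.7), against 9.99 to 10.5 in controls (median 10.3). All 8 CpG chicks lay above all 8 controls. The difference was 0.49 ± 0.12 (SE), a 1.40-fold higher level (limma, adjusted p = 0.0413). PLOD2 encodes a lysyl hydroxylase that modifies collagen and is a known target of hypoxia-inducible factors. It ranged from 4.76 to 6.21 in CpG chicks (median 5.22), against 4.06 to 5.16 in controls (median 4.32), and 5 of 8 CpG chicks lay above all controls. The PLOD2 difference was 0.90 ± 0.19 (adjusted p = 0.0153).

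In all, 0.312% of probe sets were called at D3. Of the 26 members 2 were higher, where 0.24% of all probe sets were called higher, and 0 were lower, where 0.0721% were. The unadjusted p was under 0.05 for 12 of the 26, among which PFKM and VEGFA were lower in CpG chicks. The share of all probe sets under this unadjusted threshold is not given here, so that the count has no background beside it. The median difference was 0.19 over the 12 enzymes, 0.01 over the 6 regulators and transporters and 0.03 over the 8 hypoxia genes, beside -0.02 over all probe sets. HK1, a hexokinase that phosphorylates glucose on entry to the pathway, was at 0.30 ± 0.11 (adjusted p = 0.185). ENO1, an enolase, was at 0.40 ± 0.18 (adjusted p = 0.268). LDHB, the other main lactate dehydrogenase chain, was at 0.21 ± 0.10 (adjusted p = 0.324). Among the hypoxia genes HIF1A was at 0.43 ± 0.19, and BNIP3, a mitochondrial protein of mitophagy, at 0.38 ± 0.15. VEGFA, which encodes a growth factor of blood vessels, was at -0.33 ± 0.14. None of these 3 passed, with adjusted p between 0.204 and 0.272.

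The LDHA call at D3 depended on single chicks. It ended when any of 9 of the 16 D3 chicks was left out (CpG chicks 14, 15, 17, 19 and 20, controls 85, 87, 89 and 92), with values from 0.42 to 0.52 over all 16 omissions. The PLOD2 call ended without CpG chick 18, at 0.80 (adjusted p = 0.0631). When only the 16 D3 chicks were fitted neither gene was called (adjusted p = 0.137 and 0.152), while their differences were the same.

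At D6 5 members were higher in CpG chicks than in controls of the same day. LDHA ranged from 10.1 to 11.0 in CpG chicks (median 10.5), against 9.41 to 10.5 in controls (median 9.91). The groups overlapped, with 5 of 10 CpG chicks above all 12 controls. The difference was 0.55 ± 0.10 (adjusted p = 7.55e-04), a 1.47-fold higher level.

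HK1 ranged from 6.46 to 7.30 in CpG chicks (median 6.79), against 6.01 to 6.56 in controls (median 6.40). Of the 10 CpG chicks 8 lay above all controls, and the difference was 0.43 ± 0.09 (adjusted p = 0.00588). The difference of a second HK1 probe set, 0.11 ± 0.12, did not pass (adjusted p = 0.769).

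PFKP encodes the platelet type of phosphofructokinase, the enzyme that commits sugar to glycolysis. It ranged from 7.09 to 7.62 in CpG chicks (median 7.21), against 6.60 to 7.30 in controls (median 6.86). The groups overlapped, with 4 of 10 CpG chicks above all controls, and the difference was 0.40 ± 0.09 (adjusted p = 0.00683). The genes of the other phosphofructokinase types, PFKL (liver) and PFKM (muscle), were at -0.07 ± 0.08 and -0.11 ± 0.09. The 95% intervals were -0.23 to 0.09 for PFKL and -0.29 to 0.07 for PFKM, both below that of PFKP (0.22 to 0.59). The difference between these genes was not itself tested.

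PFKFB4 encodes an enzyme that sets the level of a sugar bisphosphate that activates phosphofructokinase. It ranged from 5.66 to 6.24 in CpG chicks (median 5.78), against 4.95 to 5.77 in controls (median 5.46). Of the 10 CpG chicks 6 lay above all controls, and the difference was 0.43 ± 0.11 (adjusted p = 0.0239). This call ended without CpG chick 26, CpG chick 28 or control chick 107, with adjusted p up to 0.0645.

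PLOD2 had the largest difference of the 26 members at D6. It ranged from 4.43 to 6.19 in CpG chicks (median 5.07), against 3.61 to 4.51 in controls (median 4.20). Of the 10 CpG chicks 8 lay above all controls, and the difference was 1.00 ± 0.17 (adjusted p = 3.43e-04). Its mean is at the 9.0th percentile of probe sets, a low level.

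**Figure D1:**
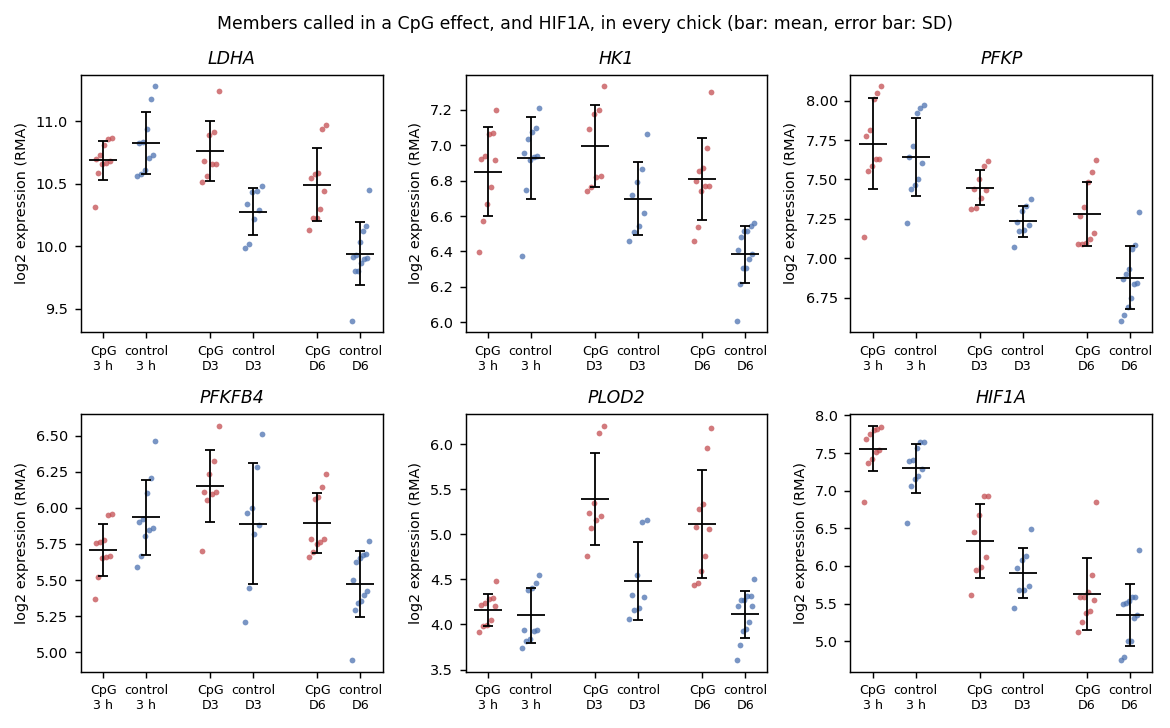
Log2 expression of LDHA, HK1, PFKP, PFKFB4, PLOD2 and HIF1A in each chick, with CpG chicks (red) left of controls (blue) at 3 h, D3 and D6. Black bars are group means and error bars are SD over 8 to 12 chicks. At D6 the CpG mean lies above the control mean in each of the first 5 genes, with some overlap of points, and HIF1A is lower at later times in both treatments.

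At D6 2.11% of all probe sets were called in either direction. The calls were 5 of 26 members higher, where 1.52% of all probe sets were called higher, and 0 lower, where 0.591% were. By role, 3 of 12 enzymes, 1 of 6 regulators and transporters, 0 of 3 sensing genes and 1 of 5 further hypoxia targets were higher in CpG chicks. The median difference was 0.29 over the enzymes and 0.11 over the regulators and transporters. It was 0.08 over the 8 hypoxia genes together and -0.02 over all probe sets. Among enzymes that did not pass, GAPDH was at 0.45 ± 0.14 (adjusted p = 0.0668), TPI1 (triosephosphate isomerase) at 0.26 ± 0.10 and ENO1 at 0.36 ± 0.15. GAPDH passed under 6 of the other settings tried, at up to 0.47 without the 4 arrays that stood apart. It did not pass under the rest, among them the fit with cell type marker scores described below. The shares of all probe sets called under these 6 settings are not given here.

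LDHB gave a contrast to LDHA at D6. LDHB ranged from 6.17 to 6.82 in CpG chicks (median 6.42), against 6.16 to 6.66 in controls (median 6.38). The difference was 0.10 ± 0.09, with a 95% interval of -0.08 to 0.28, where that of LDHA was 0.35 to 0.75. The difference between the genes was not itself tested. Among carriers, SLC2A1 (the glucose carrier GLUT1) was at -0.11 ± 0.10 and SLC16A1 and SLC16A3 (lactate carriers) were at 0.02 ± 0.10 and 0.21 ± 0.11. PDK1 and PDK3, kinases that hold pyruvate back from the mitochondria, were at 0.04 ± 0.09 and 0.17 ± 0.08. None of these 5 passed.

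Hypoxia genes other than PLOD2 did not pass at D6. HIF1A was at 0.28 ± 0.17, EPAS1, which encodes the alpha subunit of hypoxia-inducible factor 2, at 0.03 ± 0.05, and EGLN3, a prolyl hydroxylase that is itself a target, at -0.11 ± 0.09. BNIP3 was at 0.31 ± 0.13, P4HA1, a collagen prolyl hydroxylase, at 0.14 ± 0.11 and VEGFA at -0.09 ± 0.12. ADM, the vasoactive peptide adrenomedullin, was at -0.21 ± 0.09 (adjusted p = 0.239). The 95% interval of EPAS1 ran from -0.07 to 0.12 and that of VEGFA, 1 of the 8 low members, from -0.33 to 0.15.

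**Figure D2:**
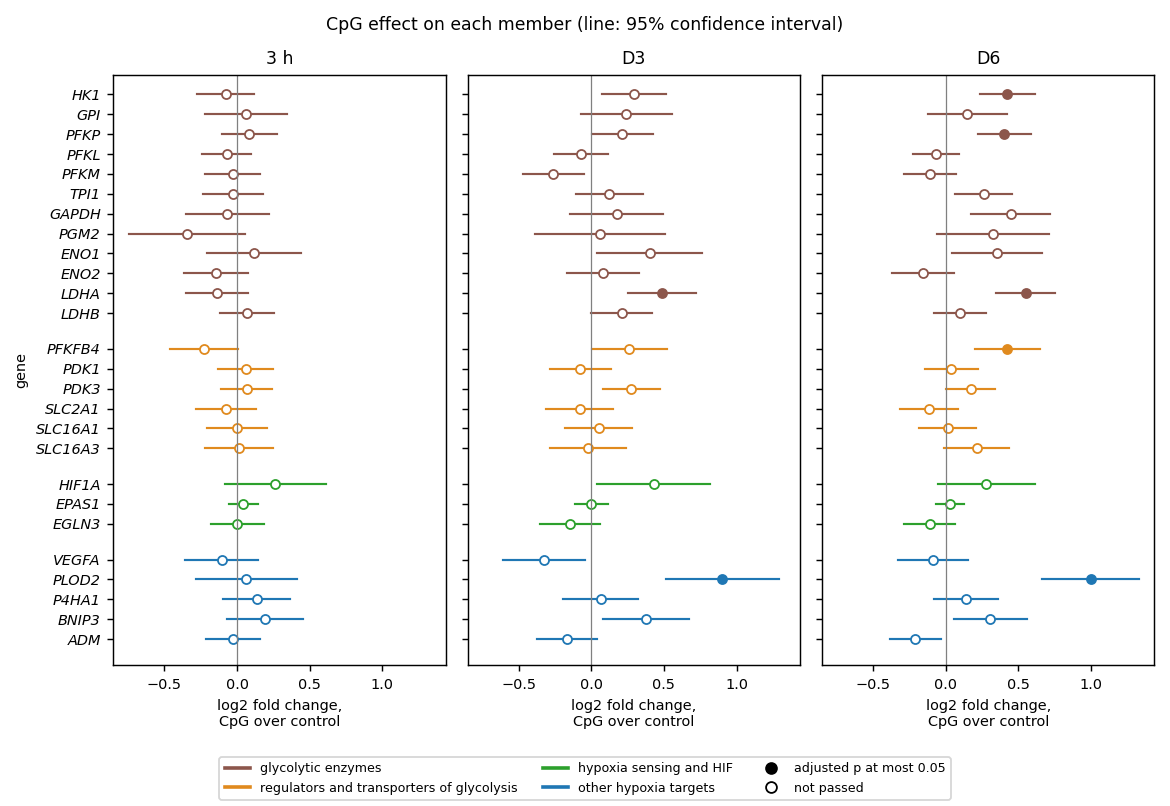
Log2 fold change of CpG over control chicks for each of the 26 members at 3 h, D3 and D6, grouped by role, with lines for the 95% confidence interval and filled points for adjusted p at most 0.05. No point is filled at 3 h, LDHA and PLOD2 are filled at D3, and HK1, PFKP, LDHA, PFKFB4 and PLOD2 are filled at D6.

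Markers of some white cells and of thrombocytes were also higher in CpG chicks, while 0 were called at 3 h. At D3 1 of 8 monocyte, 1 of 7 thrombocyte and 6 of 11 heterophil markers were called higher in CpG chicks, and the heterophil score (mean z-score of the markers) ranged from 0.45 to 2.50 in CpG chicks, against -0.51 to 0.74 in controls. At D6 4 of 11 heterophil, 5 of 8 monocyte and 3 of 7 thrombocyte markers were called higher. The monocyte score at D6 ranged from -0.12 to 1.12 in CpG chicks, against -0.93 to -0.20 in controls. The thrombocyte score ranged from -0.48 to 0.59 in CpG chicks, against -2.17 to -0.05 in controls. None of 9 erythroid, 9 T cell and 8 B cell markers was called at either day. Whether each marker was above background is not known from these values.

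With the 6 marker scores as covariates 0 of 26 members were called at D3 or D6, where 0% and 0.173% of all probe sets were. At D3 LDHA was at 0.15 (adjusted p = 0.819). At D6 LDHA was at 0.20, HK1 at 0.12, PFKP at 0.19 and PFKFB4 at 0.03 (adjusted p between 0.411 and 0.967). PLOD2 was at 0.85 at D3 and 0.55 at D6 with the scores (adjusted p = 0.219 and 0.214). The median difference of the 26 members at D6 was 0.02 with the scores, against 0.16 without them, and their median SE was 0.11 with them, against 0.10 without. The scores and the treatment move together, and which cells carried the differences was not tested.

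**Figure D3:**
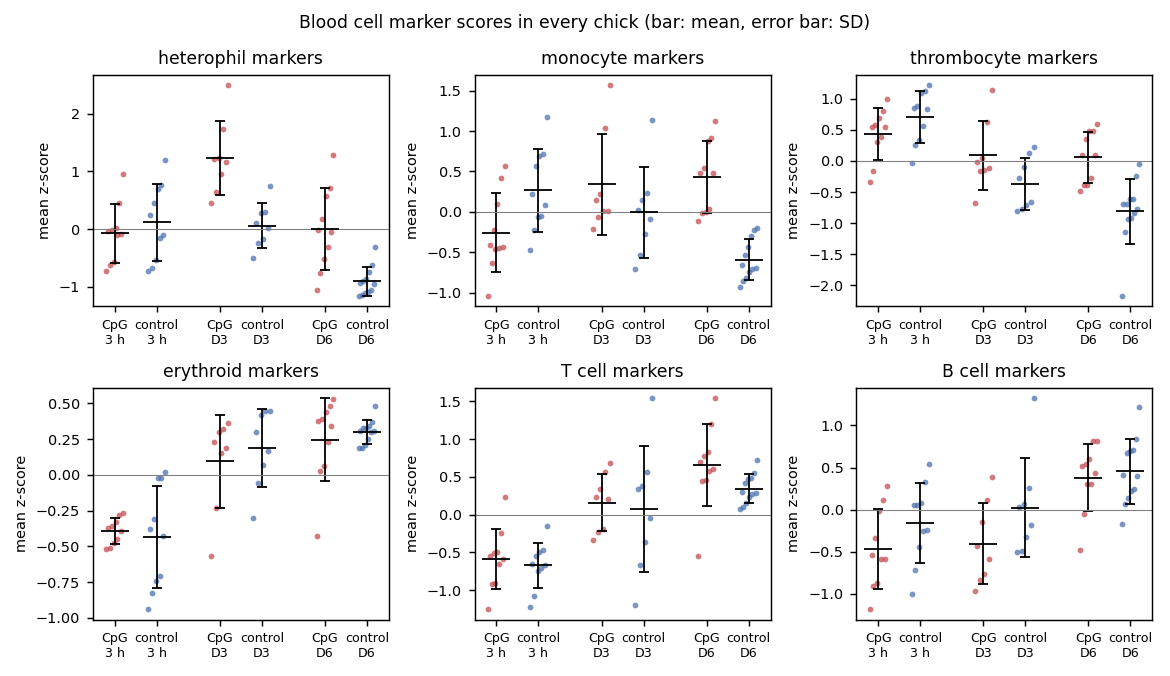
Mean z-score of heterophil, monocyte, thrombocyte, erythroid, T cell and B cell markers in each chick, CpG chicks (red) left of controls (blue) at each time, with group mean and SD. At D6 the lowest monocyte score of CpG chicks (-0.12) lies above the highest of controls (-0.20), and the heterophil scores at D3 run from 0.45 to 2.50 in CpG chicks, against -0.51 to 0.74 in controls.

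Whether the CpG effect itself changed between times was tested in the same fit. It rose from 3 h to D6 in 3 of 26 members, where 0.553% of all probe sets were called (0.596% in either direction), and fell in 0, where 0.0433% were. The change was 0.69 ± 0.15 for LDHA (adjusted p = 0.00988), 0.65 ± 0.16 for PFKFB4 (adjusted p = 0.0335) and 0.93 ± 0.24 for PLOD2 (adjusted p = 0.0472). The uncalled effects at 3 h were -0.14 ± 0.11 for LDHA, -0.23 ± 0.12 for PFKFB4 and 0.06 ± 0.17 for PLOD2. The negative values at 3 h are thus part of the LDHA and PFKFB4 changes. The LDHA change was called whichever of the 42 chicks was left out. That of PFKFB4 ended in 10 omissions (CpG chicks 1, 4, 8, 10, 26 and 28, controls 73, 74, 75 and 107) and that of PLOD2 in 28, with adjusted p up to 0.071 and 0.102. The PLOD2 change also ended with the mean of W-linked genes, a stand-in for sex, as a covariate. With the 6 marker scores as covariates none of the 3 changes was called, at 0.25 for LDHA, 0.08 for PFKFB4 and 0.24 for PLOD2 (adjusted p = 0.544, 0.942 and 0.867), where 0.0385% of all probe sets were called. The HK1 change was 0.50 ± 0.14 (adjusted p = 0.0649), and that of the second HK1 probe set 0.08 ± 0.17 (adjusted p = 0.954). From 3 h to D3 limma called 0 members, where 0.00961% of all probe sets were called, with LDHA at 0.63 ± 0.16 (adjusted p = 0.188). An unadjusted p under 0.05 was reached by 4 members, and the share of all probe sets that reached it is not given here. From D3 to D6 limma called 0, where 0% were, with 0 at an unadjusted p under 0.05.

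A difference from controls of the same day need not be a rise over time, and the 2 kinds of change parted within the set. In CpG chicks the mean of LDHA was 10.7 ± 0.16 (SD, n = 10) at 3 h, 10.8 ± 0.24 (n = 8) at D3 and 10.5 ± 0.29 (n = 10) at D6. In control chicks it was 10.8 ± 0.25 (n = 10), 10.3 ± 0.19 (n = 8) and 9.94 ± 0.25 (n = 12). From 3 h to D6 the change was -0.19 ± 0.11 in CpG chicks, which did not pass, and -0.88 ± 0.10 in control chicks (adjusted p = 2.18e-10). HK1 also had a change of -0.04 ± 0.10 in CpG chicks, which did not pass, and fell by 0.54 ± 0.09 in controls. The second HK1 probe set did not pass in either treatment, at -0.08 ± 0.12 in CpG chicks and -0.17 ± 0.12 in controls (adjusted p = 0.594 and 0.244). With the 6 marker scores as covariates neither fall in controls was called, at -0.18 for LDHA and -0.21 for HK1 (adjusted p = 0.461 and 0.383).

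PLOD2 instead rose with time in CpG chicks. In CpG chicks its mean was 4.17 ± 0.18 (SD, n = 10) at 3 h, 5.39 ± 0.51 (n = 8) at D3 and 5.11 ± 0.60 (n = 10) at D6. In control chicks it was 4.10 ± 0.31 (n = 10), 4.49 ± 0.43 (n = 8) and 4.11 ± 0.26 (n = 12). It rose by 1.22 ± 0.18 from 3 h to D3 in CpG chicks (adjusted p = 1.54e-06), with all 8 chicks of D3 above all 10 of 3 h. With the 6 marker scores this change was 0.83 (adjusted p = 0.047). The change in controls was 0.39 ± 0.18 and did not pass (adjusted p = 0.125). The difference between the treatments in the change from 3 h to D3 was called for no member, PLOD2 and PFKFB4 included. PFKFB4 also rose from 3 h to D3 in CpG chicks, by 0.44 ± 0.12 (adjusted p = 0.00606), with -0.05 ± 0.12 in controls. In controls PFKFB4 fell from D3 to D6 by 0.42 ± 0.12 (adjusted p = 0.0119, and 0.0542 without control chick 92). With the 6 marker scores as covariates neither of these PFKFB4 changes was called, and the fall in controls was not called with array weights either. The effect at D6 and the age change in controls share the D6 control chicks, so that they are not independent.

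The largest changes of the set were those between times, called age changes here. Different chicks were bled at each time, and the labels give no array batch. Age therefore cannot be told apart from sampling day or batch, nor in CpG chicks from time since injection. From 3 h to D3 7 members fell and 5 rose in CpG chicks, where 9.74% and 9.68% of all probe sets were called (19.4% in either direction), and 8 fell and 3 rose in control chicks, where 13% and 11.8% were (24.8%). From D3 to D6 8 fell and 3 rose in CpG chicks, where 12.3% and 14.8% were called (27.1%), and 13 fell and 1 rose in control chicks, where 7.95% and 6.76% were (14.7%). The median change of the 26 members from D3 to D6 was -0.18 in CpG chicks and -0.34 in controls, beside 0.05 and 0.04 over all probe sets. Over the whole span, from 3 h to D6, 6 fell and 6 rose in CpG chicks, where 20.5% and 24.1% were called (44.6%), and 13 fell and 5 rose in control chicks, where 21.7% and 26.2% were (48%).

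HIF1A and GPI fell furthest of the 26. In CpG chicks HIF1A ranged from 6.84 to 7.85 at 3 h (median 7.62), from 5.61 to 6.93 at D3 (median 6.28) and from 5.12 to 6.85 at D6 (median 5.57). In control chicks it ranged from 6.57 to 7.65 at 3 h (median 7.35), from 5.44 to 6.50 at D3 (median 5.85) and from 4.75 to 6.21 at D6 (median 5.42). All 8 controls at D3 lay below all 10 at 3 h. Between 3 h and D6 HIF1A fell by 1.94 ± 0.17 in CpG chicks and fell by 1.95 ± 0.17 in controls, and the change of the CpG effect was 0.02 ± 0.24. With the 6 marker scores as covariates the HIF1A fall from 3 h to D3 in controls was not called. Nor were its falls from D3 to D6 in either treatment. The call from D3 to D6 in controls also ended without chick 90, 92 or 108. The other HIF1A falls stayed called with the scores. EPAS1 did not pass in any of these age comparisons, with changes between -0.07 and 0.12. It lay between 12.7 and 13.2 in every chick, where the highest value on any array was 14.7. Whether so high a level limits the change that can be measured is not known. The difference between EPAS1 and HIF1A was not itself tested.

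Among the enzymes GPI, which converts glucose 6-phosphate to fructose 6-phosphate, fell at both steps. In CpG chicks it ranged from 10.5 to 11.3 at 3 h (median 10.7), from 9.66 to 10.5 at D3 (median 9.86) and from 8.26 to 9.99 at D6 (median 8.92). In control chicks it ranged from 10.3 to 10.9 at 3 h (median 10.8), from 9.38 to 10.1 at D3 (median 9.60) and from 8.35 to 9.14 at D6 (median 8.76), with no overlap between times. Between 3 h and D6 it fell by 1.87 ± 0.14 in CpG chicks (adjusted p = 8.54e-15) and fell by 1.95 ± 0.13 in controls (adjusted p = 4.26e-17). PFKP fell by 0.45 ± 0.09 in CpG chicks and by 0.77 ± 0.09 in controls over the same span. TPI1 and GAPDH did not pass from 3 h to D3. From D3 to D6 TPI1 fell by 0.48 ± 0.11 in CpG chicks and by 0.61 ± 0.10 in controls, and GAPDH by 0.63 ± 0.15 in controls, with -0.36 ± 0.15 in CpG chicks, which did not pass. The GPI fall from 3 h to D3 in CpG chicks was not called with the 6 marker scores as covariates. Nor were the PFKP falls from 3 h to D6 and the GAPDH fall in controls. The other GPI falls and the TPI1 falls from D3 to D6 stayed called. PFKM, 1 of the 8 low members, instead rose from 3 h to D6 by 0.36 ± 0.09 in CpG chicks and by 0.44 ± 0.09 in controls. LDHB rose over this span by 0.27 ± 0.09 and 0.24 ± 0.09. With the 6 marker scores as covariates LDHB was at -0.12 in CpG chicks and -0.0772 in controls, the opposite sign (adjusted p = 0.653 and 0.814), and PFKM did not pass in either. After repeated quantile normalization LDHB was no longer called in controls (0.20, adjusted p = 0.0588). ENO2, the enolase known from neurons and also 1 of the 8 low members, rose by 0.26 ± 0.11 in CpG chicks and by 0.27 ± 0.11 in controls. The CpG call ended without any of 13 chicks (3, 4, 5, 7, 8, 9, 10, 25, 26, 28, 29, 31 and 33) and the control call without any of 5 (79, 81, 100, 108 and 109).

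Regulators and carriers had patterns of their own. PDK3 ranged at D3 from 10.2 to 11.1 in CpG chicks (median 10.7) and from 10.0 to 10.7 in controls (median 10.5), and at 3 h from 10.9 to 11.5 in CpG chicks and from 10.9 to 11.2 in controls. PDK3 fell from 3 h to D3 by 0.41 ± 0.09 in CpG chicks and by 0.62 ± 0.09 in controls, and all 8 controls of D3 lay below all 10 of 3 h. SLC16A1 fell from 3 h to D3 by 0.46 ± 0.11 in CpG chicks and by 0.51 ± 0.11 in controls, and then rose from D3 to D6 by 0.33 ± 0.11 and 0.37 ± 0.10. A second SLC16A1 probe set gave -0.39 ± 0.12 and -0.47 ± 0.12 for the fall, and 0.42 ± 0.12 and 0.48 ± 0.12 for the rise. The SLC16A3 call from D3 to D6 in CpG chicks ended without chick 16, 17, 20, 29, 33 or 35. It also ended after repeated quantile normalization and with the arrays of the contrast alone. SLC16A3 fell from D3 to D6 by 0.35 ± 0.12 in CpG chicks and by 0.58 ± 0.12 in controls, where all 12 controls of D6 lay below all 8 of D3. With the 6 marker scores as covariates the SLC16A3 falls and the SLC16A1 rises from D3 to D6 were not called in either treatment. The PDK3 fall in CpG chicks was not called with the scores either. The SLC16A1 falls from 3 h to D3 and the PDK3 fall in controls stayed called. Without control chick 90, whose SLC16A1 value of 10.5 was the lowest at D3, the rise of SLC16A1 in controls was no longer called (adjusted p = 0.0715).

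Of the hypoxia targets BNIP3 and P4HA1 fell at both steps in both treatments. Between 3 h and D6 BNIP3 fell by 1.31 ± 0.13 in CpG chicks and by 1.43 ± 0.13 in controls, and P4HA1 by 0.84 ± 0.12 and 0.84 ± 0.11. The P4HA1 call from D3 to D6 in CpG chicks ended without chick 14, 19, 20 or 35, and after repeated quantile normalization. In controls the P4HA1 call from D3 to D6 ended with array weights. Once the 6 marker scores were covariates, P4HA1 was called at neither step in either treatment. BNIP3 was then called only at the step from D3 to D6 in controls. BNIP3 ranged in CpG chicks from 8.83 to 9.29 at 3 h (median 9.06), from 7.62 to 9.21 at D3 (median 8.17) and from 7.40 to 8.10 at D6 (median 7.73). In controls it ranged from 8.52 to 9.07 at 3 h (median 8.86), from 7.47 to 8.69 at D3 (median 7.90) and from 7.01 to 7.75 at D6 (median 7.45). In both treatments every BNIP3 value at D6 lay below every value at 3 h. ADM rose over that span by 0.28 ± 0.09 in CpG chicks and by 0.46 ± 0.09 in controls, and EGLN3, 1 of the 8 low members, by 0.32 ± 0.09 and 0.43 ± 0.09. VEGFA did not pass in any of these age comparisons, at -0.10 ± 0.13 in CpG chicks and -0.12 ± 0.12 in controls from 3 h to D6. The red cell score averaged 0.25 in CpG chicks and 0.30 in controls at D6, against -0.40 and -0.44 at 3 h. In CpG chicks the T cell score averaged 0.66 at D6 and -0.59 at 3 h, the B cell score 0.38 and -0.46, the monocyte score 0.434 and -0.255, the heterophil score 0.005 and -0.071, and the thrombocyte score 0.055 and 0.432. In controls the T cell score averaged 0.34 at D6 and -0.67 at 3 h, the B cell score 0.455 and -0.16, the monocyte score -0.59 and 0.26, the heterophil score -0.91 and 0.11, and the thrombocyte score -0.81 and 0.71. The lymphocyte and red cell scores were thus higher at D6 in both treatments. Of 9 red cell markers, however, 6 were called higher and 3 lower at D6 in each treatment. In CpG chicks 24.1% and 20.5% of all probe sets were called higher and lower, and in controls 26.2% and 21.7%. The mean log2 level of the red cell markers was 12.716 at 3 h and 12.735 at D6 in CpG chicks, and 12.702 and 12.714 in controls. With the 6 scores as covariates 5 members were called in CpG chicks from 3 h to D6 (GPI, TPI1, HIF1A, P4HA1 and BNIP3, all lower at D6). Of these TPI1 was not called in CpG chicks without the scores. In controls 4 were called (the same without TPI1). Of all probe sets 10% and 8.4% were called with the scores. Without them 12 and 18 members were called, where 44.6% and 48% of all probe sets were. The part of cell composition in the age changes was not tested.

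**Figure D4:**
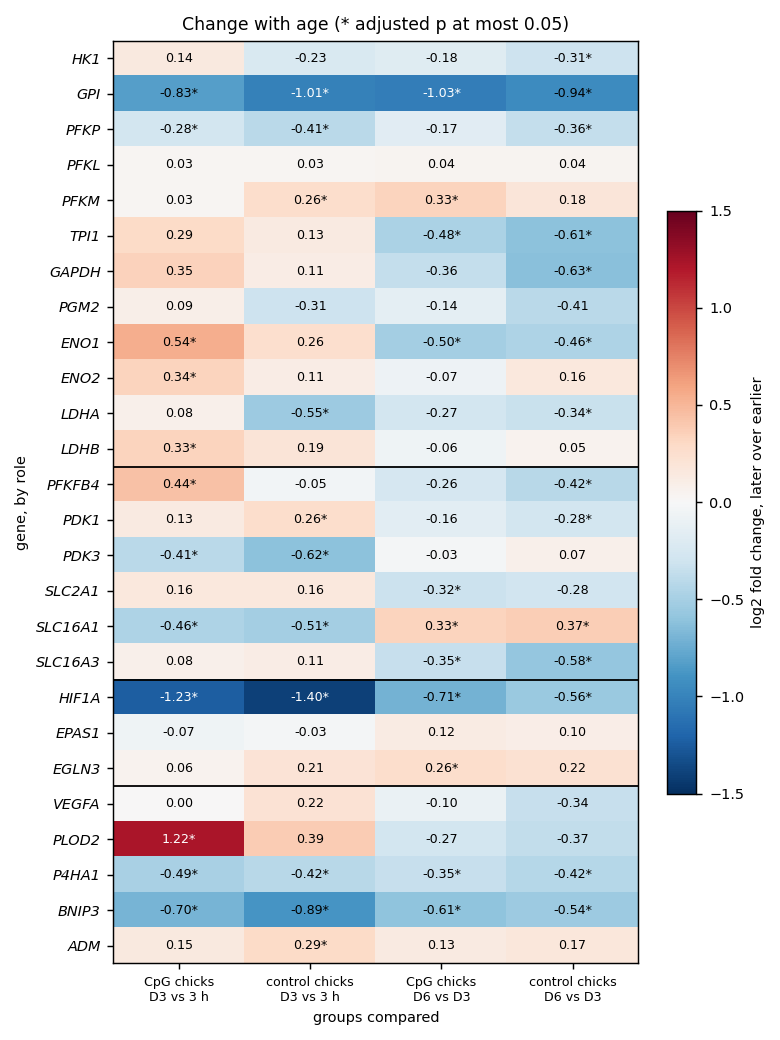
Log2 fold change of the later over the earlier time in CpG and control chicks for the 26 members by role, with a star where the adjusted p is at most 0.05. GPI, PFKP, HIF1A, BNIP3 and P4HA1 are negative in all 4 columns, and PLOD2 from 3 h to D3 in CpG chicks (1.22) is the largest positive value.

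Genes around the set were read from lists of their own. None of 8 further genes of oxygen sensing (such as ARNT and VHL), 12 further hypoxia targets, 5 of the pentose phosphate pathway, 16 of pyruvate entry and the citrate cycle and 8 of glycogen passed in a CpG effect at any time. Their medians at D6 were 0.05, 0.06, -0.02, -0.01 and 0.08. Of all probe sets 0% were called at 3 h, 0.312% at D3 and 2.11% at D6, so that the lack of calls in lists this short says little. Of 13 further genes of glycolysis and glucose synthesis 1 passed, BPGM, which makes bisphosphoglycerate from a glycolytic intermediate and is known from mammalian red cells. BPGM ranged from 10.7 to 12.3 in CpG chicks at D6 (median 11.6), against 11.6 to 12.8 in controls (median 12.4). The difference was -0.81 ± 0.14 (adjusted p = 4.40e-04), with 5 of 10 CpG chicks below all controls, and its CpG effect changed by -0.95 ± 0.21 from 3 h to D6 (adjusted p = 0.0124). At D3 the BPGM difference was 0.31 ± 0.17, the opposite direction, and did not pass (adjusted p = 0.361). BPGM values with the marker scores as covariates, or with single chicks left out, are not given here. With age in controls, 7 of the 12 further hypoxia targets fell and 2 rose from 3 h to D6, where 21.7% and 26.2% of all probe sets were called.

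For 3 of the unmatched names a probe set carried another symbol whose gene record lists the name as a synonym, and they are given apart. The PGK2 probe set (PGK1 as a synonym, phosphoglycerate kinase) was at 0.33 ± 0.09 in the CpG effect at D3 (adjusted p = 0.0957) and 0.19 ± 0.08 at D6. The PKLR probe set (PKM as a synonym, pyruvate kinase) was at 0.32 ± 0.12 at D3 and -0.02 ± 0.10 at D6. The ERO1A probe set (ERO1L as a synonym, an oxidase of disulfide formation) was at -0.23 ± 0.09 at 3 h (adjusted p = 0.915) and 0.29 ± 0.09 at D6 (adjusted p = 0.0714). Its CpG effect rose from 3 h to D6 by 0.51 ± 0.13 (adjusted p = 0.035), and the lower value at 3 h is part of this rise.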

How the data were processed

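Whole blood was taken into PAXgene tubes, and DNase-treated RNA was labelled with biotin, per the labels' protocols. The authors deposited log2 expression values made with RMA, per the submitters' processing notes, whose version is not given here. Array medians lay between 6.64 and 6.78.

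Names came from the platform annotation (12300 probe sets with 1 symbol, 256 with several, 8248 with none). limma 3.58.1 in R 4.3.3 fitted 1 mean per group to 58 arrays and 20804 probe sets (52 residual degrees of freedom). P-values are two-sided, with Benjamini-Hochberg adjustment over all probe sets of each comparison and a threshold of 0.05. Members, lists, markers and tests were chosen with earlier results of these data known. The rule named each member called in a CpG effect or its change, LDHA, LDHB, HIF1A and VEGFA, up to 3 members per role in control age changes, and listed genes outside the set called in a CpG effect; other values illustrate counts. On simulated data 71.6% of 1.5-fold and 100% of 2-fold changes at D6 were recovered among 20804 independent probe sets, with 14 false calls. The simulation held no age or cell composition differences, so that recovery in the real data may differ. Folds under 1.5, such as those of LDHA, HK1, PFKP and PFKFB4 at D6, were not simulated, nor was a CpG effect at 3 h or D3. Alternatives changed the probe sets or arrays fitted, the prior, the weights, the normalization and the covariates. No chicks were paired, and each chick is 1 sample, so that the number of arrays limits the precision.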

Additional observations from a re-analysis of the deposited data

Results flagged for a closer look

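Among the CpG effects, 3 changed from 3 h to D6 by the test of the change itself: LDHA by 0.69, PFKFB4 by 0.65 and PLOD2 by 0.93.

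A single chick lay far from the others of its group in 17 of 130 tests (13.1%), of 26 members in 5 groups, where about 1 in 20 is expected by chance. The 12 controls at D6 were not tested, being more than 10. Members vary together, so that these tests are not independent. CpG chick 2 at 3 h was high in TPI1 (9.07, others up to 8.80), ENO2 (5.55, up to 5.13), PDK1 (6.53, up to 6.06) and SLC16A3 (9.04, up to 8.60), and was the highest of its group in 10 of 26 members. It was the highest of its group in 5 of the 6 marker scores (heterophil 0.96, thrombocyte 1.00, erythroid -0.27, T cell 0.23 and B cell 0.28), with the monocyte score at 0.10. CpG chick 10 at 3 h was low in LDHA (10.3, others from 10.6) and HIF1A (6.84, others from 7.36).

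CpG chick 20 at D3 was high in TPI1 (9.66, others up to 9.14), GAPDH (9.83, up to 9.18) and ENO1 (10.5, up to 9.86), and 5 of its 6 marker scores were the highest of its group (heterophil 2.50, monocyte 1.57, thrombocyte 1.14, T cell 0.69 and B cell 0.39), with the erythroid score at 0.23. CpG chick 14 at D3 was high in GPI (10.5, others up to 10.0), with the lowest erythroid (-0.57), heterophil (0.45), monocyte (-0.21) and B cell (-0.97) scores of its group. CpG chick 31 at D6 was high in HIF1A (6.85, others up to 5.88) and PFKL (7.64, up to 7.16), with the lowest erythroid (-0.43) and T cell (-0.54) and the highest monocyte (1.12) and thrombocyte (0.59) scores of its group. CpG chick 32 at D6 was low in ADM (6.31, others from 6.72). The part of cell composition in these values was not tested.

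Among controls, chick 74 at 3 h was low in PFKM (5.33, others from 5.89) and chick 82 high in VEGFA (7.04, others up to 6.43). At D3 chick 86 was low in EPAS1 (12.7, others from 13.0) and chick 90 low in SLC16A1 (10.5, others from 11.1).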

How the results depend on the processing

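No paired analysis was possible because the groups share no chick numbers. Beside leaving out each chick in turn, 10 planned settings were run, and a fit without the 4 arrays that stood apart was added after seeing the data. With 6 cell type scores as covariates the members called numbered 0 at D3, 0 at D6 and 0 for the change of the CpG effect from 3 h to D6. With those scores they numbered 4 (D3 against 3 h), 2 (D6 against D3) and 5 (D6 against 3 h) in CpG chicks, where 3.62%, 0.784% and 10% of all probe sets were called. In controls they numbered 4, 3 and 4, where 6.23%, 6.47% and 8.4% were. For D3 against 3 h the calls that stayed were SLC16A1, HIF1A and PLOD2 in CpG chicks, and GPI, PDK3 and SLC16A1 in controls. The other member counted there in each treatment was not called without the scores and is not named here. At D3 the count was 2 in the fit reported, 1 without the 40% lowest probe sets (where PLOD2 was not tested), 1 after repeated quantile normalization, 1 without the 4 arrays and 0 with the arrays of the contrast alone. Repeated quantile normalization gave 7 members from D3 to D6 in CpG chicks, against 11. The cause of these differences was not tested. The shares of all probe sets called are not given here for the settings without the scores, nor for the fits that left out a chick.

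Leaving out 1 chick gave 1 to 2 members at D3, 4 to 5 at D6 and 1 to 4 for the change from 3 h to D6. For age it gave 9 to 14, 8 to 12 and 11 to 13 in CpG chicks, and 8 to 11, 10 to 16 and 17 to 18 in controls, in the order above. It gave 0 at 3 h and for the other changes of the effect. With the 6 scores 4 called values changed sign: ENO1 to -0.11 (CpG D3 against CpG 3 h), LDHB to -0.12 (CpG D6 against CpG 3 h) and LDHB to -0.0772 (CTL D6 against CTL 3 h), and SLC16A3 to 0.11 (CTL D6 against CTL 3 h). Of 10876 values of single members under other settings or with a chick left out, 407 differed in sign from the fit reported. How these divide between settings and left-out chicks is not given here. Signal over background is not known, which limits the 8 low members.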
